A study of Mus musculus with 12 samples.

Results

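The neuregulins and the other ligands of the EGF family were examined at the level of DNA copy number in mouse cells cultured from malignant peripheral nerve sheath tumours (MPNSTs). The genes were listed by name (Nrg1, Nrg2, Nrg3, Nrg4, Tgfa, Btc, Areg, Ereg, Hbegf and Egf), and every probe that carries one of these names on the array was taken. Of the 10 genes 9 had a probe, and no probe was named Nrg2. The 9 genes had 18 probes, out of 40726 autosomal probes with 19948 gene names. Array comparative genomic hybridisation measures, for each probe, the ratio of tumour DNA to reference DNA. All values below are log2 of that ratio, so 0 stands for equal amounts and positive values for more tumour DNA, with the autosomal median of every array set to 0.

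The 12 arrays held DNA of 11 tumours. The mixed group was 7 tumours from mice of C57BL/6J x SJL/J background (231 Trig, A18, A202, A292, A382, A390 and A394), and the C57BL/6J group was 4 tumours from mice of that strain (B86, B91, B96 and B76). All tumour cells carried a transgene that expresses GGFβ3, an isoform of neuregulin-1, from a promoter active in the Schwann cells that wrap peripheral nerve. The reference on every array was DNA of cultured wild-type C57BL/6J Schwann cells without the transgene. Tumour cultures were started in forskolin and NRG1β and then kept without them, whereas the Schwann cells stayed in both. A382 had an array at each of passages 9 and 8, whose mean stands for that tumour. The sample titles give passages from 5 to 13 for 10 of the tumours, whereas the protocol names passage 8 as the highest. The tumour DNA carried Cy5 and the reference Cy3 on all arrays, so effects of dye, probe and reference DNA cannot be told apart from those of the tumours. A gain in some of the cells and a smaller gain in all of them cannot be told apart either. DNA ratios do not report expression, so the labelled cell types could not be checked against marker genes. Nothing in the labels says whether tumours shared a mouse or litter, and p-values measure only the spread between these samples.

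EGF family ligands are made as membrane-bound precursors that proteases release, and they act on the 4 receptor tyrosine kinases of the ErbB family. Egf, Tgfa and Areg bind Egfr, Btc, Ereg and Hbegf bind both Egfr and Erbb4, and the neuregulins bind Erbb3 or Erbb4, with Erbb2 as the partner that has no known ligand of its own. Neuregulin-1 is the main axonal growth and survival signal for Schwann cells.

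The arrays read each gene with 1 to 3 oligonucleotides, so the oligonucleotides behind the results are shown here, 5′ to 3′ as the files give them, with their positions in mm9. They are the probes of the 4 ligand genes that passed a test against their neighbours, and those of Nrg1, whose isoform is the transgene. No base is singled out.
Tgfa probe 1 (chr6:86187387-86187446): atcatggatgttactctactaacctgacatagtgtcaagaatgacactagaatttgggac
Tgfa probe 2 (chr6:86213445-86213504): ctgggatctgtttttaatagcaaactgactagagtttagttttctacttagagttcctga
Nrg4 probe 1 (chr9:55118345-55118404): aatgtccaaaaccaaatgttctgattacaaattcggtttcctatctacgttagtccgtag
Nrg4 probe 2 (chr9:55131318-55131377): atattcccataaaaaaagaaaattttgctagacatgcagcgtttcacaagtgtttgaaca
Btc probe 1 (chr5:91805074-91805133): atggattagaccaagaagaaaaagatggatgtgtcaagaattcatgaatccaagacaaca
Btc probe 2 (chr5:91819780-91819839): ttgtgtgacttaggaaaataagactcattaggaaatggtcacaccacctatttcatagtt
Btc probe 3 (chr5:91827288-91827347): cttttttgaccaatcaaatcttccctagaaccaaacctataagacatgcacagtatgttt
Areg probe (chr5:91577167-91577226): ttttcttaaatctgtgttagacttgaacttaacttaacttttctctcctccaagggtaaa
Nrg1 probe 1 (chr8:32944646-32944705): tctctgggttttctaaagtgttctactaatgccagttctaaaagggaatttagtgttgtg
Nrg1 probe 2 (chr8:32990682-32990741): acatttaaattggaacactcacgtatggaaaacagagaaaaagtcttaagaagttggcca

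Probes are numbered along the chromosome from the lowest coordinate, for Nrg1 as for the others. An annotation of mm9 was not used here, so exon, intron and strand are not given. The 18 ligand probes were 57 to 60 bases long, with a GC content of 31.7% to 40.4%, against a median of 36.7% over all autosomal probes. Each was well above background on all 12 arrays. Slide 1, with the tumours 231 Trig, A18, A202 and B86, was scanned on a different instrument. Its 4 arrays had 0.723% to 1.99% of their spots left out as missing, compared with 0.0604% to 0.107% for the other slides. The missing ligand values were those of Ereg probe 1 in A202 and of Nrg4 probe 2 in A202 and B86.

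Setting the tumours against wild-type Schwann cells asks at which ligand genes the tumour cells carry more or less DNA. Only a minority of the ligand probes passed the test, and the size of the changes was small except at Tgfa. A probe passed with a limma adjusted p under 0.05 (Benjamini-Hochberg over all autosomal probes) and a mean at or above 0.2, or at or below -0.2. Of the 18 ligand probes 4 were higher in the tumours (Tgfa probe 1, Nrg4 probe 1 and Btc probes 1 and 2), 3 were lower (Nrg1 probe 2, Nrg3 probe 1 and Hbegf probe 2), and 11 did not pass. Over all autosomal probes 20.3% passed as higher and 17.2% as lower, and the counts of the ligands lie close to these shares. The median ratio was 0.01 over the 18 ligand probes and 0.002 over all probes.

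**Figure D1:**
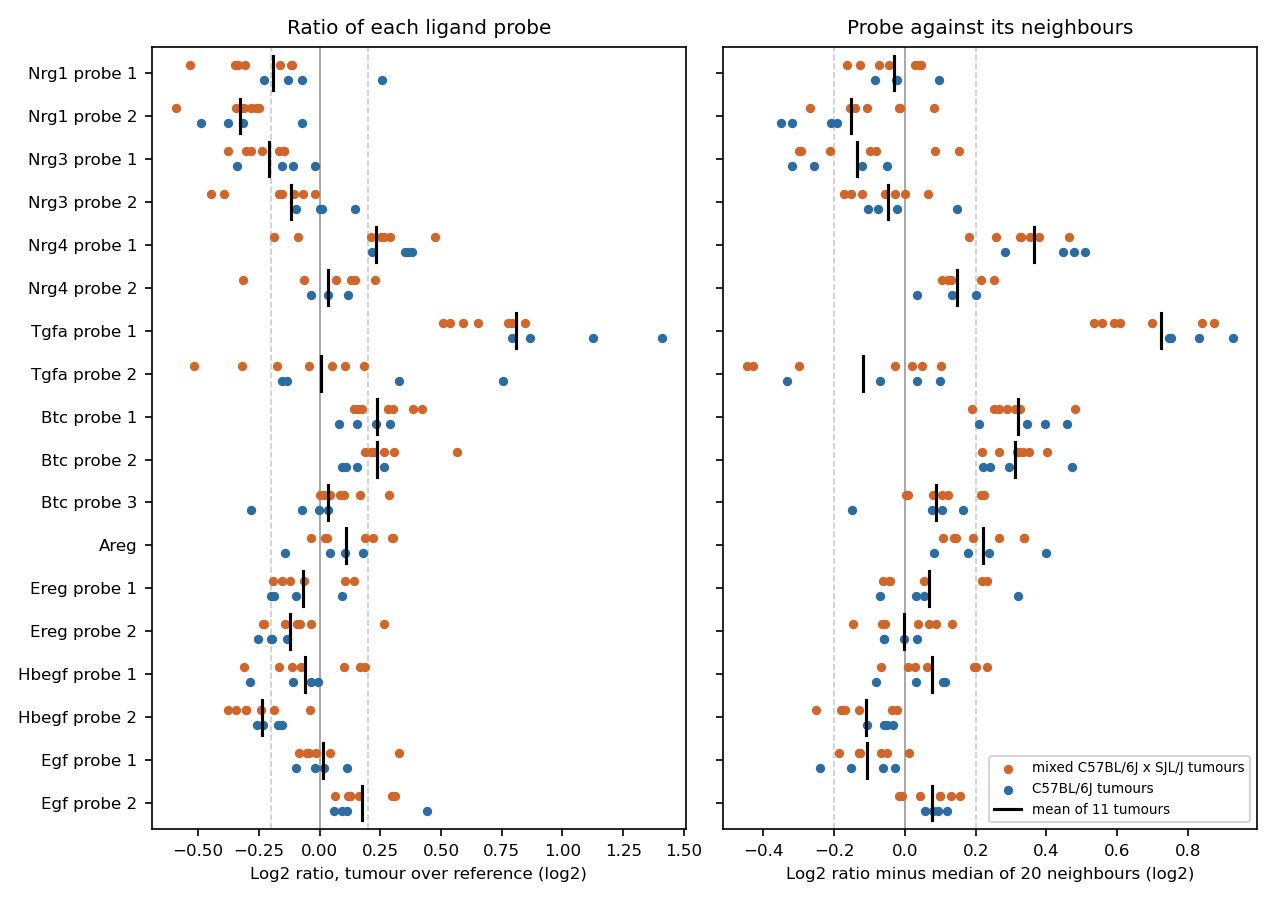
Log2 ratio of each ligand probe (left) and the same ratio minus the median of its 20 neighbouring probes (right), 1 point per tumour, in orange for the mixed tumours and blue for the C57BL/6J tumours. Black bars are means of the 11 tumours and dashed lines mark -0.2 and 0.2. Tgfa probe 1 lies at 0.51 or above on the left in every tumour, while Tgfa probe 2 spreads on both sides of 0.

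Each probe was then set against the stretch it lies in, as its ratio minus the median of the 20 neighbouring probes (10 on each side). Among the ligand probes this stretch spanned from 529 kb at Nrg4 probe 1 to 3956 kb at Nrg3 probe 1. Other probes of the same gene could be among the neighbours. In limma 5 of 18 ligand probes were higher on this measure and 0 were lower, against 13.5% and 14.9% of all autosomal probes. The 5 were Tgfa probe 1, Nrg4 probe 1, Btc probes 1 and 2 and the Areg probe. In either direction 13 of 18 had an unadjusted p under 0.05, against 27736 of 40726 autosomal probes. The stretches themselves gave no call: 0 of 18 ligand neighbourhoods were higher and 0 were lower, against 10.1% and 2.26% of all probes' neighbourhoods. Those shares include chromosome 11, which had a positive median in every tumour and holds no ligand gene. An unadjusted p under 0.05 was found for 12 of 18, against 19753 of 40726 neighbourhoods of all probes. With 10 neighbours in place of 20, 1 ligand neighbourhood was higher and 2 were lower.

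Tgfa, which encodes transforming growth factor alpha, a ligand of Egfr, had the highest ratio of the ligands. As a gene, the mean of its probes, it averaged 0.41 ± 0.29 (SD, n = 11 tumours) and rose (limma adjusted p = 3.22e-04). Of all autosomal gene names 18% passed as higher and 15.5% as lower. The rise came from one of the gene's probes. Tgfa probe 1 ranged from 0.51 in 231 Trig through a median of 0.79 to 1.41 in B91, with a mean of 0.81 ± 0.26 (SD, n = 11), and lay above 0 in 11 of 11 tumours. Against its neighbours it ranged from 0.53 in A394 to 0.93 in B96, with a mean of 0.72 ± 0.14 (SD, n = 11) and a limma adjusted p of 5.32e-09. Only 0.314% of autosomal probes stood as far or farther above their neighbours, and probe 1 was number 128 in that order.

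Tgfa probe 2, 26.1 kb away, did not share this. It ranged from -0.52 in 231 Trig through a median of -0.04 to 0.75 in B91, and averaged 0.01 ± 0.34 (SD, n = 11). The probes differed by 0.80 on average, in the same direction in 11 of 11 tumours. A difference of that size or more separated 1.07% of the 14432 pairs of adjacent probes of 1 gene, and the median difference of such pairs was 0.157. Probe 2 also differed by slide. Minus its neighbours it lay between -0.45 and -0.30 in the 4 tumours of slide 1 and between -0.07 and 0.10 in the other 7. Probe 1 showed no such split, with means against its neighbours of 0.65, 0.78 and 0.77 on slides 1, 2 and 3.

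The neighbourhood of Tgfa on chromosome 6 averaged 0.11 ± 0.23 (SD, n = 11) and reached 0.2 in 3 tumours: B91 at 0.66, B76 at 0.29 and A18 at 0.25. The median of the whole chromosome was 0.67 in B91, 0.34 in B76 and 0.26 in A18, so in these tumours the stretch lay near its chromosome. A probe without a gene name 38.5 kb above the middle of the Tgfa probes averaged 0.49 ± 0.25 (SD, n = 11), and the remaining 19 probes of the stretch had means from -0.25 to 0.34. The plot of probes around the genes shows Tgfa probe 1 alone above 0.5.

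**Figure D2:**
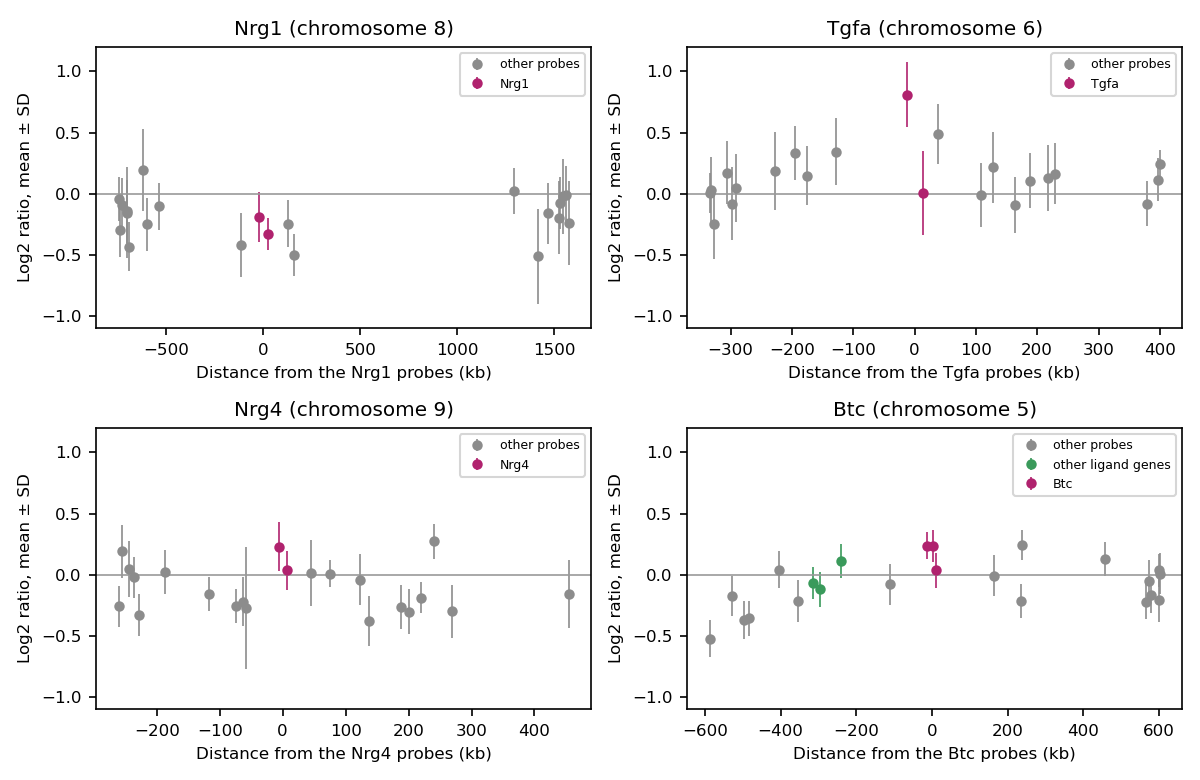
Mean log2 ratio ± SD over the 11 tumours for the probes of Nrg1, Tgfa, Nrg4 and Btc (magenta) and their neighbours (grey, other ligand genes green), by distance in kb from the middle of the gene's probes. Tgfa probe 1 averages 0.81 with probe 2 at 0.01. The Nrg1 probes average -0.19 and -0.33, within the range of the means of their neighbours.

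Among the neuregulins, Nrg1 was lower and Nrg4 was higher against its neighbours. Nrg1 as a gene fell by 0.26 ± 0.15 (SD, n = 11, limma adjusted p = 3.04e-04) and was below 0 in 10 of 11 tumours. The lowest tumour was A202 at -0.56, the median was -0.25, and B76 alone was above 0, at 0.09. The stretch around Nrg1 on chromosome 8 moved with it, from -0.58 in A202 to 0.28 in B76, with a mean of -0.17 ± 0.20 (SD, n = 11) that did not pass the size minimum. Minus its neighbours Nrg1 averaged -0.09 ± 0.07 (SD, n = 11), also short of the minimum.

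The probes of Nrg1 were set apart by position, because the mice carry a transgene of one of its isoforms. The gene had only 2 probes, 46.0 kb apart. Probe 1, at the lower coordinate, ranged from -0.53 in A202 through a median of -0.16 to 0.26 in B76, with a mean of -0.19 ± 0.20 (SD, n = 11). Probe 2 ranged from -0.59 in A202 through a median of -0.31 to -0.07 in B76, with a mean of -0.33 ± 0.13 (SD, n = 11). The value of probe 1 in B76 was the only one above 0.

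The higher-coordinate probe minus the lower one averaged -0.14 ± 0.15 (SD, n = 11). It was below 0 in 9 of 11 tumours, from -0.33 in B76 to 0.09 in A18, and the exact permutation p over all sign flips, two-sided, was 0.0137. The smallest p this test can give is 0.000977. Adjacent probes of 1 gene differed at least as much in 54.9% of all such pairs, so a difference of this size was common on these arrays. In the mixed tumours alone it was -0.06 (exact permutation p = 0.219) and in the C57BL/6J tumours alone -0.27 (exact permutation p = 0.125, the smallest that n = 4 allows). The difference between the groups was not tested.

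The sequence of the transgene was not used here, so whether the Nrg1 probes lie in it was not tested. The plot of Tgfa and Nrg1 by tumour shows both Nrg1 probes below 0 in every tumour except for probe 1 in B76, while Tgfa probe 1 lies above 0 in all of them.

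**Figure D3:**
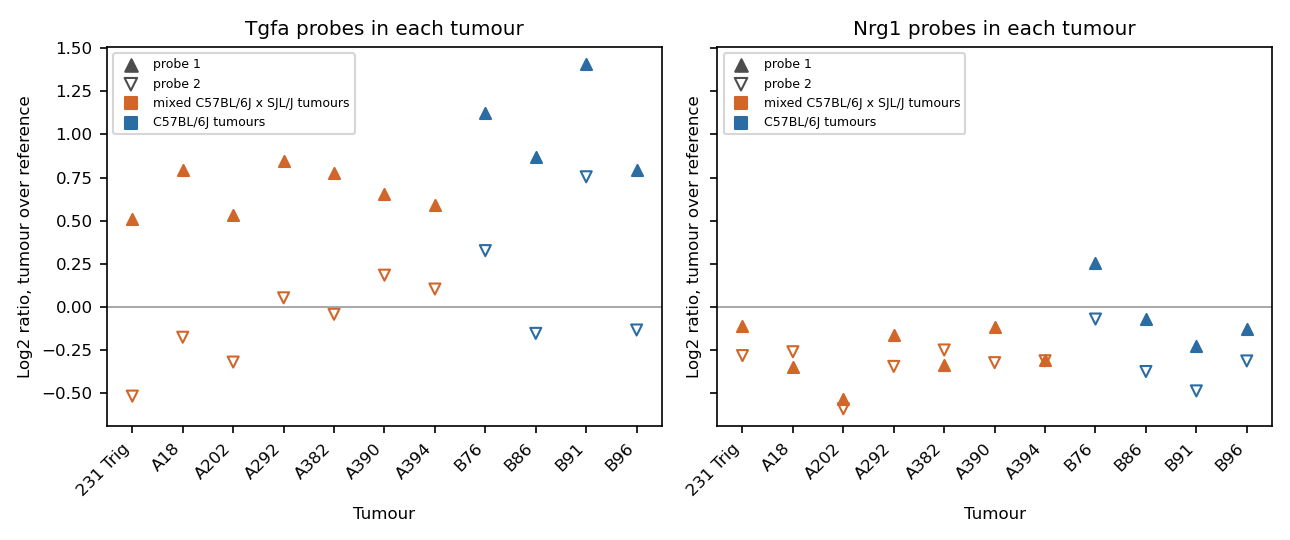
Log2 ratio of both Tgfa probes (left) and both Nrg1 probes (right) in each tumour, on 1 scale, with filled triangles for probe 1, open triangles for probe 2, mixed tumours in orange and C57BL/6J tumours in blue. Tgfa probe 1 lies above probe 2 in 11 of 11 tumours, and the highest Nrg1 value is 0.26, in B76.

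Nrg4, a ligand of Erbb4, stood above a stretch that was itself slightly low. Nrg4 probe 1 averaged 0.23 ± 0.20 (SD, n = 11, limma adjusted p = 0.00339), from -0.19 in A390 through a median of 0.27 to 0.47 in 231 Trig. Minus its neighbours it was above 0 in 11 of 11 tumours, from 0.18 in A202 to 0.51 in B86, with a mean of 0.36 ± 0.10 (SD, n = 11, limma adjusted p = 2.62e-07). Both low ratios, in A390 and in A202 (-0.09), fell in tumours whose neighbourhood on chromosome 9 was low, at -0.44 and -0.26.

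Nrg4 probe 2, 13 kb away, averaged 0.03 ± 0.16 (SD, n = 9), and 0.15 ± 0.07 minus its neighbours (limma adjusted p = 4.18e-04), under the size minimum. It was lower than probe 1 in 9 of 9 tumours. As a gene Nrg4 averaged 0.14 ± 0.18 (SD, n = 11) and did not pass, with A202 and B86 read by probe 1 alone. Minus the neighbours the gene was higher, at 0.27 ± 0.10 (SD, n = 11), as were 9.38% of all genes.

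Nrg3, which also binds Erbb4, was read by probes 983 kb apart, the widest spacing among the ligands. Nrg3 probe 1 fell by 0.21 ± 0.11 (SD, n = 11, limma adjusted p = 5.72e-04) and was below 0 in 11 of 11 tumours, from -0.38 in A382 to -0.02 in B86. This mean lies just past the size minimum, and the call ended when B91, A292, A382 or A394 was left out (-0.19 to -0.20). On slides 1, 2 and 3 probe 1 averaged -0.12, -0.30 and -0.25, and minus its neighbours 0.02, -0.24 and -0.23. Probe 2 averaged -0.12 ± 0.17 (SD, n = 11), and the gene -0.16 ± 0.10 (SD, n = 11), neither past the test.

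Btc, which encodes betacellulin, also stood above its stretch. Btc probe 1 averaged 0.24 ± 0.11 and probe 2 averaged 0.24 ± 0.13 (SD, n = 11 each), with limma adjusted p of 1.67e-04 and 3.66e-04. Both were above 0 in 11 of 11 tumours, from 0.08 and 0.09 in B91 to 0.42 and 0.57 in A202. Minus their neighbours they averaged 0.32 ± 0.09 and 0.31 ± 0.08 (SD, n = 11 each), from 0.19 in A202 to 0.48 in 231 Trig and from 0.22 in A390 to 0.47 in B86.

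Btc probe 3, only 7.51 kb beyond probe 2, averaged 0.03 ± 0.14 (SD, n = 11) and was lower than probe 2 in 11 of 11 tumours, by 0.20 on average. As many as 39.2% of adjacent pairs of 1 gene differed that much or more. The gene averaged 0.17 ± 0.11 (SD, n = 11), short of the size minimum, and 0.24 ± 0.06 minus its neighbours, where it passed.

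Areg and Ereg, which encode amphiregulin and epiregulin, lie in the same stretch of chromosome 5, 240.2 kb and 295 to 313 kb below the middle of the Btc probes, with Epgn, the gene of a further Egfr ligand, beyond them. The Areg probe averaged 0.11 ± 0.14 (SD, n = 11) and did not pass, from -0.14 in B86 through a median of 0.11 to 0.30 in A202. Minus its neighbours it rose by 0.22 ± 0.10 (SD, n = 11, limma adjusted p = 2.99e-05) and was above 0 in 11 of 11 tumours. That call ended with 10 neighbours (0.15) and with 40 (0.19).

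The Ereg probes averaged -0.07 ± 0.13 (SD, n = 10) and -0.12 ± 0.15 (SD, n = 11), and neither passed. Ereg probe 1 differed by slide, with mean ratios of 0.11, -0.14 and -0.14 on slides 1, 2 and 3. Minus its neighbours these means were 0.26, -0.05 and 0.02. As a gene, read by its single probe, Epgn fell by 0.21 ± 0.17 (SD, n = 11, limma adjusted p = 0.00239) and was below 0 in 11 of 11 tumours. With 1 tumour left out it passed in 9 of 11 runs. Without B86, where it read -0.62, it averaged -0.17 and did not pass. The neighbourhood values around Btc, Areg and Ereg ran from -0.23 in B76 to 0.25 in A202. Within this stretch Btc and Areg had positive mean ratios and Ereg and Epgn negative ones.

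Hbegf, the heparin-binding ligand, had probes 2.09 kb apart on chromosome 18. Probe 2 fell by 0.24 ± 0.10 (SD, n = 11, limma adjusted p = 1.18e-04) and was below 0 in 11 of 11 tumours, from -0.38 in A382 through a median of -0.24 to -0.04 in A202. Probe 1 averaged -0.06 ± 0.17 (SD, n = 11), with means of 0.11, -0.22 and -0.09 on slides 1, 2 and 3. The gene averaged -0.15 ± 0.12 (SD, n = 11), and its neighbourhood -0.13 ± 0.07 (SD, n = 11), neither past the minimum, while probe 2 minus its neighbours averaged -0.11 ± 0.08.

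Egf itself did not pass in any of the tests against the reference. Its probes averaged 0.01 ± 0.12 and 0.17 ± 0.12 (SD, n = 11 each), and the gene 0.09 ± 0.11 (SD, n = 11). Its 2 highest neighbourhoods were those of B76, at 0.34, and A18, at 0.32. The median of chromosome 3 was 0.35 in B76 and 0.23 in A18.

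Over the 9 loci and 11 tumours there were 99 neighbourhood values. Those of Btc, Areg and Ereg share many neighbouring probes, so they are not separate readings. Of these 7 were at or above 0.2, 14 were at or below -0.2 and 78 lay between. The high values made up 7.07%, against 19.4% over all autosomal probes, and the low ones 14.1%, against 10.3%. The share past either limit was 21.2%, against 29.7% of the neighbourhood values of all autosomal probes. The highest was Tgfa in B91 at 0.66, and the lowest were Nrg1 in A202 at -0.58 and Nrg4 in A390 at -0.44. In A202 the median of chromosome 8 was -0.42, and in A390 that of chromosome 9 was -0.40. None of the 9 neighbourhoods passed -0.2 or 0.2 in 231 Trig, A292 or B96.

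**Figure D4:**
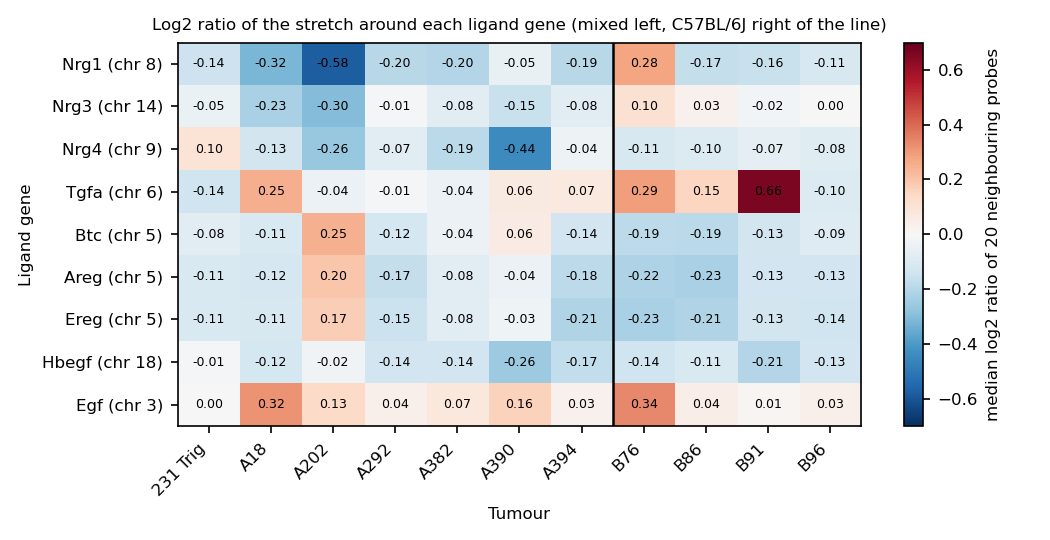
Median log2 ratio of the 20 neighbouring probes around each ligand gene (rows, with chromosome) in each tumour (columns), averaged over the gene's probes, on a colour scale from -0.7 (blue) to 0.7 (red). Mixed tumours stand left of the black line and C57BL/6J tumours right of it. B91 reads 0.66 at Tgfa and A202 reads -0.58 at Nrg1.

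The genes of the same pathway were read from a list of receptors, sheddases, regulators and adaptors, of which 18 of 19 had a probe (none was named Adam17). As genes 9 were higher, 4 were lower and 5 did not pass, against the background of 18% and 15.5%. The median was 0.17, against -0.01 over all genes. Of the 9 higher genes 6 lie on chromosome 11, where the reference channel itself was low on every array, at -0.53 ± 0.04 (SD, n = 12 arrays). How far that shift of the reference makes up these ratios was not tested.

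Among the receptors, Egfr rose by 0.68 ± 0.21 and Erbb2 by 0.50 ± 0.23 (SD, n = 11 each), both on chromosome 11 and both above 0 in 11 of 11 tumours. Their neighbourhoods were as high, at 0.75 ± 0.16 and 0.59 ± 0.20. Erbb3, the receptor partner of Erbb2 for neuregulin, rose by 0.21 ± 0.15 (SD, n = 11, limma adjusted p = 0.00174) within a stretch of chromosome 10 at -0.13 ± 0.12, and stood 0.34 ± 0.08 above its neighbours. Its ratio lay just past the size minimum and did not pass without A382 (0.17), B86 (0.19) or A202 (0.20). Erbb4, with 7 probes, averaged 0.13 ± 0.33 (SD, n = 11) and did not pass, from -0.35 in 231 Trig to 0.72 in B96.

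Of the sheddases and their partners, Adam19 (0.50 ± 0.15), Rhbdf1 (0.58 ± 0.25) and Rhbdf2 (0.50 ± 0.21) were higher, all on chromosome 11. Bace1, the beta-secretase that also cleaves Nrg1, was lower at -0.23 ± 0.17 (SD, n = 11 each). In a stretch at 0.78 ± 0.18, Adam19 was lower minus its neighbours, at -0.28 ± 0.06, as were 2405 of 19948 genes. Rhbdf1 and Rhbdf2 averaged -0.16 and -0.17 minus their neighbours and did not pass. Of the negative regulators, Lrig1 was higher at 0.39 ± 0.27 and Errfi1, an inhibitor of Egfr, was lower at -0.31 ± 0.11. Of the adaptors, Grb2 on chromosome 11 (0.65 ± 0.21) and Shc1 (0.22 ± 0.18) were higher and Gab1 was lower at -0.40 ± 0.20 (SD, n = 11 each). Sos1 did not pass. None of the 9 ligand genes lies on chromosome 11.

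**Figure D5:**
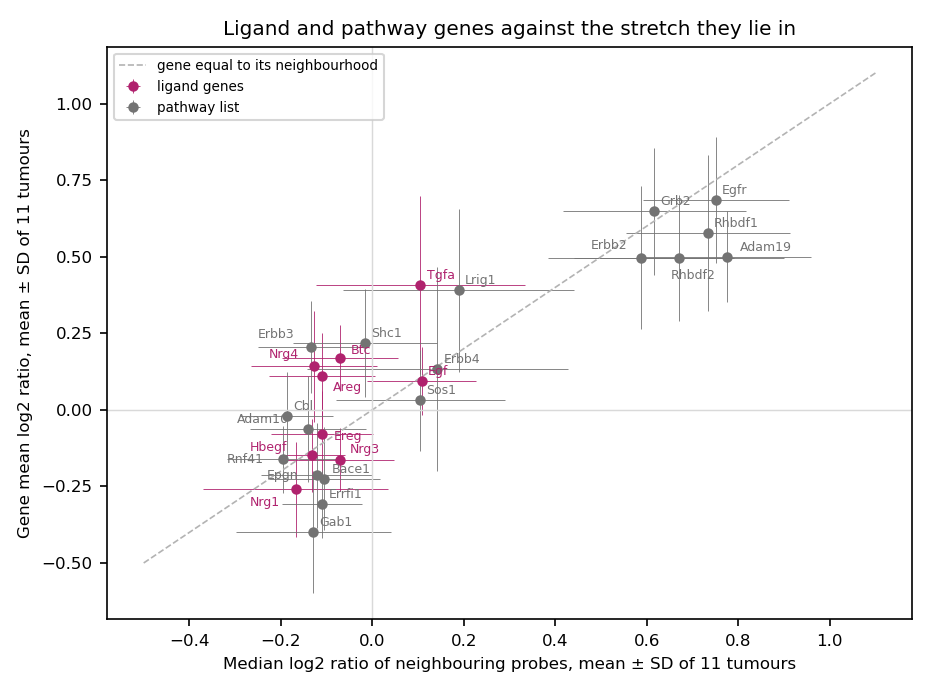
Mean log2 ratio of each ligand gene (magenta) and pathway gene (grey) against the median of its neighbouring probes, each ± SD over the 11 tumours. On the dashed line a gene equals its stretch. Egfr, Erbb2 and the other chromosome 11 genes have rounded means of 0.50 to 0.68, Tgfa lies above the line, and Nrg1 and Nrg3 lie below it.

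The labels also give strain background, which allows the mixed tumours to be compared with the C57BL/6J tumours. No ligand passed: 0 of 18 probes differed in ratio, against 0.0417% of all autosomal probes, and 0 of 18 differed minus their neighbours, against 0.115%. Of 40726 autosomal probes 3815 in ratio and 2928 minus neighbours had an unadjusted p under 0.05. In each of these limma fits 1 ligand probe did. In ratio it was Tgfa probe 1, which read 0.51, 0.79, 0.53, 0.85, 0.78, 0.65 and 0.59 in the mixed tumours 231 Trig, A18, A202, A292, A382, A390 and A394, and 0.87, 1.41, 0.79 and 1.12 in the C57BL/6J tumours B86, B91, B96 and B76. The groups overlapped, with B96 inside the range of the mixed tumours. The mean was 0.67 in the mixed and 1.05 in the C57BL/6J tumours, a difference of -0.38 (limma adjusted p = 0.44). Within slides 1, 2 and 3 the difference was -0.25, -0.64 and -0.29, each from 4 tumours or fewer, so no test was made within slides.

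Minus its neighbours Tgfa probe 1 differed by -0.14 (limma adjusted p = 0.77). The neighbourhood of Tgfa averaged 0.02 in the mixed and 0.25 in the C57BL/6J tumours. Nrg1 probe 2 minus its neighbours was the other probe with an unadjusted p under 0.05, with a mean of -0.09 in the mixed and -0.27 in the C57BL/6J tumours (difference 0.18, limma adjusted p = 0.477). Within slides 1, 2 and 3 that difference was 0.18, 0.18 and 0.19. The slides held only 1, 1 and 2 C57BL/6J tumours, and A382 was counted on both slides 2 and 3. No test was made within slides.

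The arrays of A382 show how far a ligand value moved between passage 8 on slide 2 and passage 9 on slide 3. Passage and slide cannot be told apart here, and neither array was on slide 1. Over the 18 probes the median absolute difference between the passages was 0.057, and the largest was 0.20, at Hbegf probe 2, which read -0.48 at passage 9 and -0.28 at passage 8. For Tgfa probe 1 the ratio was 0.74 at passage 9 and 0.82 at passage 8.

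Lastly, genes whose ratios followed those of Nrg1 and Tgfa closely over the 11 tumours were sought on other chromosomes, among genes with 3 or more probes. For Nrg1, AK015429 (Pearson r = 0.87) and Gfra2 (0.86), both on chromosome 14, were among the 3 highest of 2451 genes ranked. For Tgfa the 3 highest were AK140922 (0.84), AK013242 (0.82) and Hagh (0.78), all on chromosome 17, of 2434 genes ranked. These are descriptions of n = 11 tumours that share arrays, slides and 1 reference, and highest values picked from many.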

How the data were processed

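Each array compared tumour DNA (Cy5) with reference Schwann cell DNA (Cy3). Per the file headers, the deposited values are log10 ratios with the tumour signal on top, after the scanner software subtracted background, removed spatial and multiplicative trends and normalised the dyes linearly. The deposited files also give each channel's intensity, per the file headers. Agilent Feature Extraction 9.5 and build mm9 are named in the submitters' processing notes. The log10 ratios in the deposited value table of the series differed from these by 0 at most.

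Ratios were turned to log2, control spots dropped, spots marked non-uniform or as population outliers set to missing, spots of 1 probe averaged (42404 probes, 40726 of them autosomal), and each array centred on its autosomal median. The arrays of A382 were averaged. A gene is the mean of its probes, by the files' gene names. Tests used limma 3.58.1 in R 4.3.3 on all autosomal probes or genes, against 0 or between strain backgrounds, with Benjamini-Hochberg adjustment, an adjusted p under 0.05 and a size of at least 0.2. All arrays used the same reference DNA, whose own spread is therefore left out. Nrg1 positions were compared by flipping signs in all ways (exact permutation test, two-sided). The procedure was tested on simulated data: for probes minus neighbours it recovered 93% of changes of 0.3 and 98% of changes of 0.6, with 0.0074% false calls. The simulated noise was independent between probes and centred on 0. These rates therefore do not cover fixed offsets of a probe, the dye or the reference. Python 3.11.15 and matplotlib 3.10.9 drew the figures. The median mean signal of the spots on an array, before background subtraction, was 538 to 1245 in the tumour channel and 612 to 817 in the reference channel. No spot was saturated. The number of arrays limits the precision.

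All ligands with a probe are named, with every probe that passed and the highest and lowest of each gene; of the pathway list the receptors, Epgn and further genes that passed; some items named by this rule are not reported here. The members, lists and named genes were chosen with earlier results of these data known. Alternatives changed centring, background and dye correction, GC content, slide, strain group, tumours left out, flagged and dim spots, size minimum, neighbours and gene value.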

Additional observations from a re-analysis of the deposited data

Results flagged for a closer look

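In 4 of 36 groups of ligand gene values 1 tumour lay farther from its group than Dixon's 95% limit allows. Chance flags about 1 in 20 groups. Nrg1 read -0.56 in A202, against -0.31 to -0.20 in the other mixed tumours. Minus its neighbours, Egf read -0.10 in A202, against -0.02 to 0.03 in the other mixed tumours. Among the C57BL/6J tumours, Tgfa minus its neighbours read 0.21 in B86, against 0.42 to 0.43 in the others, and Btc read 0.15 in B96, against 0.06 to 0.07. A202 and B86 were hybridised on slide 1. In A202 the stretch around Nrg1 read -0.58, and Nrg1 minus its neighbours 0.02. In B86 Tgfa minus its neighbours read 0.75 at probe 1 and -0.33 at probe 2. What lies behind the flagged values was not tested.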

How the results depend on the processing

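Of 349 counts and position tests under the alternatives 319 kept their side of the threshold or stayed within 1.5 times, as did 1424 of 1518 values of single probes, genes and the pathway counts. The 349 include the strain counts, which were 0 in the main setting and in every alternative. The series value table, 1 of the alternatives, holds the same values as the main setting, so its agreement was fixed. In every one of 29 alternatives Tgfa probe 1 (0.66 to 0.83), Nrg4 probe 1 (0.32 to 0.43) and Btc probes 1 (0.27 to 0.41) and 2 (0.22 to 0.41) passed as higher than their neighbours, and the Areg probe passed in 26 (0.15 to 0.25).

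Probes against the reference: the main counts were 4 higher and 3 lower. With a minimum of 0.3 there were 1 and 1, with no minimum 5 lower, with normexp and loess 5 lower, and in the C57BL/6J tumours 2 higher. Probes against their neighbours: lower counts, 0 in the main setting, were 2 without slide 1, 1 in the C57BL/6J tumours, and 1 each with 10 and 40 neighbours. With no minimum 9 were higher and 4 lower. Neighbourhoods: with no minimum 1 was higher and 9 lower, with 10 neighbours 1 and 2, in the mixed tumours 2 lower, and with 1 tumour left out 0 to 2 lower (2 without B76). Genes, 1 higher and 1 lower: there were 2 and 2 with normexp and loess and in the mixed tumours, 2 and 0 in the C57BL/6J tumours, 2 higher with medians of a gene's probes, 2 lower without slide 1, 0 lower with a minimum of 0.3, and 3 and 3 with no minimum. The Nrg1 position difference was -0.27 in the C57BL/6J and -0.064 in the mixed tumours, past the threshold in neither.

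Signs turned in values that did not pass in either setting. Without slide 1 these were Nrg4 probe 2 in ratio (-0.0071) and, minus neighbours, Ereg probe 1 (-0.012) and Tgfa probe 2 (0.029). In the C57BL/6J tumours the ratios of Btc probe 3 (-0.081) and Nrg3 probe 2 (0.014) turned, and in the mixed tumours that of Tgfa probe 2 (-0.10) and, minus neighbours, Ereg probe 2 (0.0082). Ereg probe 2 also turned with slide as a block (0.00014), as did the strain difference of Nrg1 probe 2 (0.026). With 10 neighbours Nrg1 probe 1 minus neighbours was 0.081. With 1 tumour left out, Egf probe 1 ran from -0.019 to 0.024, Tgfa probe 2 from -0.068 to 0.059, Ereg probe 2 minus neighbours from -0.016 to 0.012, and the strain difference of Nrg1 probe 2 from -0.085 to 0.054. The causes were not tested. No paired analysis was possible because replicate numbers only name the tumours in order. The 1 reference DNA, the lack of a dye swap and 1 to 3 probes a gene limit every value.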
